A study of Saccharomyces cerevisiae with 41 samples.

Results

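The comparison set 2 temperature-sensitive strains of budding yeast against each other directly: csl4-ph, which carries an allele of the RNA exosome subunit gene CSL4, and enp1-1, which carries an allele of the ribosome biogenesis gene ENP1. It used 6 of the 41 libraries of the series, 3 of each strain, each strain holding an empty vector. All 11569 features outside the ribosomal DNA, of 11587 in the table, were taken, and 6249 of them passed the filter on low counts and were tested. The series as a whole measured RNA of control cells and of mutants of DIS3, RRP6, CSL4, ENP1 and SRM1 in 3 kinds of libraries (3′ tags, oligo d(T)-selected RNA and ribo-depleted RNA). All groups used here, the control included, are labelled as vegetative cells with the genetic background BY4741, grown at 25 °C and harvested after 90 min at the non-permissive 37 °C. The labels name the alleles csl4-ph and enp1-1 and do not say whether the replicates came from separate cultures, so p-values measure the spread between these libraries, which may be technical.

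The RNA exosome is a complex that degrades RNA from its 3′ end. In the nucleus it removes cryptic unstable transcripts (CUTs), short RNAs of many promoters and intergenic regions that are hard to detect while it works, and it trims precursors of small nucleolar RNAs (snoRNAs) and of ribosomal RNA. Csl4 is part of the cap through which RNA enters the complex. Enp1 is a component of precursors of the small ribosomal subunit and is needed for their maturation and export. Box C/D snoRNAs guide 2′-O-methylation of ribosomal RNA and H/ACA snoRNAs guide its pseudouridylation, and NUTs are transcripts found when the termination factor Nrd1 is depleted.

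The following sequences are of noncoding RNAs with large differences between the strains, read from the RefSeq reference genome R64 (sacCer3). The first are H/ACA snoRNAs, on the minus strand of chrIII:178610-178798 and chrXV:759326-759529, with the ACA near their 3′ end in capitals.
snR189: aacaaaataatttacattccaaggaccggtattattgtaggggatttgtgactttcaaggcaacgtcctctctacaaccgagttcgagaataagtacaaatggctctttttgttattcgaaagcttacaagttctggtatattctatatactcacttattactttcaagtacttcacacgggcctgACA
snR35: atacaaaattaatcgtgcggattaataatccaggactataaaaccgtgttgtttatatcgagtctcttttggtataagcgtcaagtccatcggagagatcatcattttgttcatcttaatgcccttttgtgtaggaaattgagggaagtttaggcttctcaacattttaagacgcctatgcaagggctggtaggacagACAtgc
The next are box C/D snoRNAs, on the minus strand of chrXII:794937-795024 and chrV:431129-431220, with the letters TGATGA of box C and CTGA of box D in capitals where a match was found.
snR57: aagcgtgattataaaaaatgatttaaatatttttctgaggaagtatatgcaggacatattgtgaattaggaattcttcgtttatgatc
snR52: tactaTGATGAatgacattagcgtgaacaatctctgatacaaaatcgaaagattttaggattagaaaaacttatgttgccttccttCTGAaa
The last are CUTs whose names carry no strand but do carry chromosome, start and end, given on the plus strand with TCTTG and GTAG on either strand in capitals. The proteins Nab3 and Nrd1 are known to bind RNA with these letters.
CUT_XIII_874390_874550: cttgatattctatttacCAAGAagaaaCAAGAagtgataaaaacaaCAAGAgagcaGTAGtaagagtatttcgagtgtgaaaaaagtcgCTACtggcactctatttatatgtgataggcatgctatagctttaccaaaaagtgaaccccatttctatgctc
CUT_IV_784435_784643: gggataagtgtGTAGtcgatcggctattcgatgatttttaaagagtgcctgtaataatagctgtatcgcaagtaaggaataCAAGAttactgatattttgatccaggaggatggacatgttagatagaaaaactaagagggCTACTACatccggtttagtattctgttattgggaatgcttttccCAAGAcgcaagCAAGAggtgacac
The letters ACA lay within 10 bases of the 3′ end in 19 of 29 H/ACA snoRNAs (65.5%) and in 10 of 47 box C/D snoRNAs (21.3%). CTGA lay within 12 bases of the 3′ end in 45 of 47 box C/D snoRNAs (95.7%), and TGATGA started within the first 15 bases in 36 of 47 (76.6%). TCTTG and GTAG occurred 3 and 2 times in the first CUT, where 52.8% and 61.5% of the 825 CUTs at least as long held them in a window of its length. They occurred 3 times each in the second CUT, where 66.4% and 71.3% of the 750 CUTs at least as long held them in a window of its length. These matches describe the letters only.

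The libraries held single 3′ tags, 1 read near the 3′ end of an RNA, assigned by the authors to features. The 6 libraries held 597581 to 809617 estimated counts outside the ribosomal DNA, which itself took 64% ± 1.66 (SD, n = 3) of all counts in csl4-ph and 64.7% ± 4.41 (SD, n = 3) in enp1-1. Levels are given below as CPM, counts scaled to a fixed library total outside the ribosomal DNA, in which 3 counts, the floor used for groups at 0, stood for 3.76 to 4.96 CPM, a limit that covers counting error only. Correlations of log2 CPM between libraries were 0.851 to 0.887 within a strain and 0.73 to 0.776 between the strains. ORF features hold the coding span without untranslated ends, so tags past a stop codon are not counted on them. Many features overlap, and the assignment of tags among overlapping features can be all or nothing. In bulk RNA, fewer cells of a kind and less RNA per cell cannot be told apart.

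NAB2 was the only one of the genes altered or followed in the series that passed the test. NAB2 encodes a poly(A) RNA-binding protein whose own mRNA is known to be kept low by the nuclear exosome. Its level was 603.3, 620.3 and 577.8 CPM in csl4-ph, 393.6, 353.6 and 435 CPM in enp1-1, and 254.6, 237.3 and 223.9 CPM in the control. All csl4-ph libraries lay above all enp1-1 libraries, which in turn lay above the control (csl4-ph against enp1-1: log2 fold change 0.61, SE 0.12, adjusted p = 0.00246). ENP1 itself was at 769, 666.3 and 710.9 CPM in csl4-ph and at 1039, 1012 and 650 CPM in enp1-1, and the groups overlapped (log2 fold change -0.33, SE 0.19, adjusted p = 0.271). These alleles need not alter the level of the mRNA, so this is no check of the labels. The log2 fold changes of DIS3, RRP6 and PAB1 were -0.15, -0.80 and -0.40 with adjusted p of 0.529, 0.386 and 0.674, PAB1 lying near the floor in every library, and CSL4 and SRM1 did not pass the filter. Of 8 tested core exosome subunits 0 were called by edgeR or DESeq2, and 0 had an unadjusted p under 0.05. In oligo d(T)-selected RNA 1 of 11 was higher and 5 lower, beside 26.7% of all features each way. In ribo-depleted RNA 0 of 11 were higher and 7 lower, beside 26% and 32.1%. DIS3 (-0.69 and -0.61) and RRP6 (-0.41 and -0.32) were called lower in both kinds of RNA. ENP1 was called lower there too (-0.45 and -0.80), and with a Pab1GFP vector in place of the empty one (-0.85).

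More features were higher in csl4-ph than in enp1-1, and noncoding features made up most of them. In edgeR's quasi-likelihood test, at a Benjamini-Hochberg adjusted p under 0.05, 691 of the 6249 features (11.1%) were higher in csl4-ph and 342 (5.47%) were lower, with a median log2 fold change of 0.01 over all features tested. Of 594 tested CUTs 190 were higher and 37 lower (median 0.78), and of 1177 tested NUTs 222 were higher and 57 lower (median 0.27). Of 3241 tested ORFs 146 were higher and 179 lower (median -0.11). Of 417 features named ST, 42 were higher and 26 lower, and of 778 features numbered with F or R, 78 were higher and 33 lower. Among the 2053 tested features that overlap no other, fewer were higher than lower: 83 (4.04%) against 131 (6.38%), with a median of -0.12. Most of these were ORFs (1874 tested, 51 higher and 110 lower). Of the calls 66.9% were higher in csl4-ph with the scaling used (TMM) and 77.9% with median-ratio scaling, which moved the median by 0.11, as far as the ORF median lies from 0. Without replicate 2 of csl4-ph, 199 features were called lower in place of 342.

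**Figure D1:**
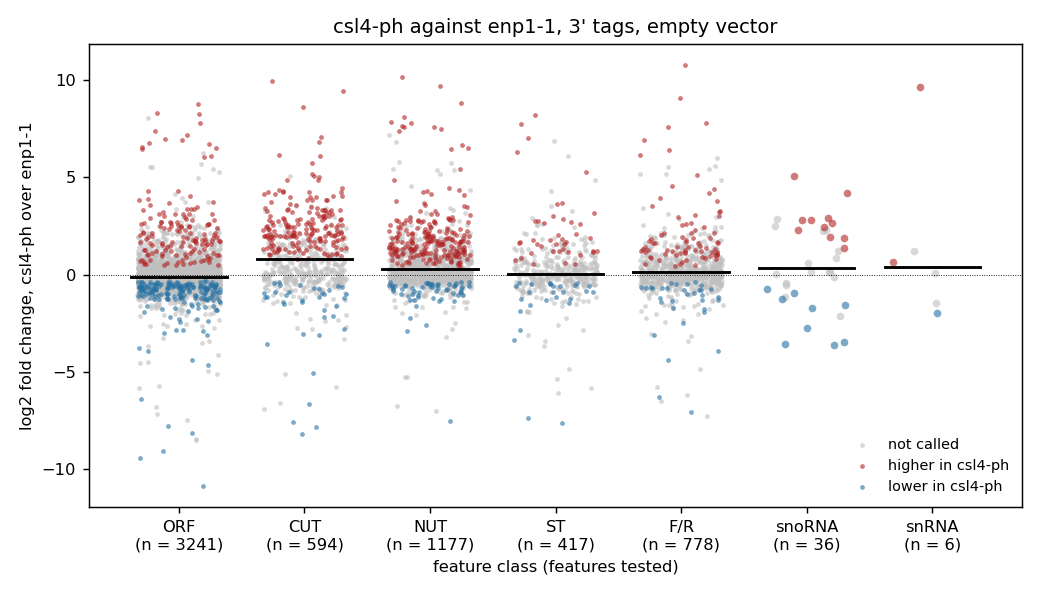
Log2 fold change of csl4-ph over enp1-1 in 3′ tags with empty vector (vertical axis), 1 point for each tested feature, by feature class; red and blue points passed the test as higher and lower in csl4-ph, and bars are class medians. The points of CUTs sit mostly above 0 (median 0.78) and those of ORFs are centred near 0 (median -0.11).

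Summed over all 924 CUTs, the level was 60910, 64470 and 59920 CPM in csl4-ph, 33190, 35080 and 38350 CPM in enp1-1, and 28150 to 29560 CPM in the control. The strains did not overlap. CUTs took 6.15% ± 0.241 (SD, n = 3) of the counts outside the ribosomal DNA in csl4-ph and 3.67% ± 0.185 in enp1-1, a difference for which the exact permutation test gave p = 0.1, the smallest that 3 libraries against 3 allow (adjusted to 0.167 over 15 shares). ORFs took 51.5% ± 1.58 in csl4-ph and 58.01% ± 0.857 in enp1-1. The number of CUTs at 0 counts was 201 to 215 per library in csl4-ph, 227 to 240 in enp1-1 and 430 to 445 in the control. Of the 190 CUTs higher in csl4-ph, 44 were at 0 in all 3 control libraries and 4 at 0 in all 3 enp1-1 libraries.

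The CUTs are given here by what they overlap. Of 137 tested CUTs that overlapped other noncoding features alone, 65 were higher in csl4-ph and 4 lower (median 1.37). Of 394 that overlapped an ORF, 110 were higher and 24 lower (median 0.63). Of 59 that overlapped no other feature, 13 were higher and 9 lower (median -0.05). For NUTs the higher and lower counts were 160 and 48 of 991 on ORFs, 35 and 3 of 120 on other noncoding features alone, 21 and 6 of 48 on snoRNAs or snRNAs, and 6 and 0 of 18 where they overlapped nothing (7 and 0 by DESeq2, 7 and 1 at an unadjusted p under 0.05 by edgeR). Whether the difference between these classes came from how tags were shared among overlapping features was not tested. With overlapping features on either strand summed into 5881 loci, a choice made after the data were seen, 671 of 4157 tested loci were higher and 367 lower. Of 184 tested loci with a CUT or NUT and no ORF or snoRNA, 73 were higher and 14 lower, and of 2553 with an ORF and neither a CUT nor a NUT, 156 were higher and 232 lower.

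Single noncoding transcripts differed by more than an order of magnitude. CUT_XIII_874390_874550, whose sequence is given above, lies 52 bases from ADH2 (alcohol dehydrogenase) and 436 bases from UBP15. It was at 395.4, 477 and 312.7 CPM in csl4-ph, at 2.539, 3.761 and 11.58 CPM in enp1-1, and at 0, 0 and 1.683 CPM in the control. The csl4-ph libraries stood far above the others, while enp1-1 lay close to the floor (log2 fold change 6.11, SE 0.40, adjusted p = 3.51e-08). In oligo d(T)-selected RNA this CUT was called higher (1.45, SE 0.40). In ribo-depleted RNA it was not called (0.16, SE 0.50, adjusted p = 0.827). CUT_IV_784435_784643, the second CUT printed above, lies 219 bases from SEC1 and 227 from TRM82. It was at 339.2, 385 and 280.1 CPM in csl4-ph and at 11.43, 22.57 and 11.58 CPM in enp1-1 (log2 fold change 4.43, SE 0.32, adjusted p = 8.17e-08). Its control level was 3.04 CPM ± 0.881 (SD, n = 3), so the order of the means was csl4-ph, enp1-1, control.

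NUT1217 (chrXI:245564-245968) overlaps no feature and lies between GFA1, 190 bases away, and APE1, 169 bases away. It was at 987.8, 957.9 and 712.2 CPM in csl4-ph and at 25.39, 17.55 and 18.19 CPM in enp1-1 (log2 fold change 5.42, SE 0.25, adjusted p = 7.88e-10). NUT1395 (chrXV:135929-136299), which spans the box C/D snoRNA snR58, was at 3295, 3586 and 2974 CPM in csl4-ph and at 152.3, 185.6 and 157.1 CPM in enp1-1. In both NUTs all csl4-ph libraries lay above all enp1-1 libraries, and the control means were 8.69 and 17.6 CPM. The fold change of NUT1395 was 4.31 on the log2 scale (SE 0.18, adjusted p = 2.27e-10). NUT1469, which overlaps POS5, had no counts in any enp1-1 library and 209.4 CPM ± 32 (SD, n = 3) in csl4-ph, at least 50.1-fold higher against the floor of 3 counts per library. In the control NUT1469 was at 46.4 CPM ± 20.8, between the strains, and it lies 811 bases from MF(ALPHA)1, an alpha-factor gene of alpha cells. The feature 4F-384, which overlaps nothing and lies 131 bases from the heat shock gene HSP42, was at 137.1 CPM ± 5.87 in csl4-ph and 7.51 CPM ± 2.42 in enp1-1 (SD, n = 3; adjusted p = 2.31e-06).

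Some noncoding features were lower in csl4-ph. ST1778, which overlaps PRY1, was at 547, 552.5 and 472.3 CPM in csl4-ph and 1683, 1841 and 2316 CPM in enp1-1 (log2 fold change -1.89, SE 0.14, adjusted p = 1.01e-07). In oligo d(T)-selected RNA ST1778 was lower too (-0.72, SE 0.05), but in ribo-depleted RNA it was called higher in csl4-ph (0.35, SE 0.04, adjusted p = 9.7e-05). ST3070, which overlaps the histone variant gene HTZ1, was at 323.7 CPM ± 28.1 in csl4-ph and 805.4 CPM ± 5.23 in enp1-1 (SD, n = 3; adjusted p = 5.66e-07). Neither pair of groups overlapped. CUT_III_28613_29109, which overlaps KAR4, was at 0.947 CPM ± 0.833 in csl4-ph and 203.5 CPM ± 19 in enp1-1 (SD, n = 3; adjusted p = 5.48e-08). KAR4, a transcription factor gene of the mating response, was at 0 in all csl4-ph and control libraries and at 48.24, 22.57 and 82.7 CPM in enp1-1, at least 12.5-fold higher there. The neighbouring CUT_III_29909_30405 was at 1.04 CPM in csl4-ph and 108.3 CPM in enp1-1 (adjusted p = 0.000175). KAR4 and both of these CUTs lie on chromosome III. In oligo d(T)-selected and ribo-depleted RNA, CUT_III_28613_29109 had log2 fold changes of 0.07 and 0.37, neither called, and KAR4 was called higher in csl4-ph in the former (0.19) and lower in the latter (-0.48).

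**Figure D2:**
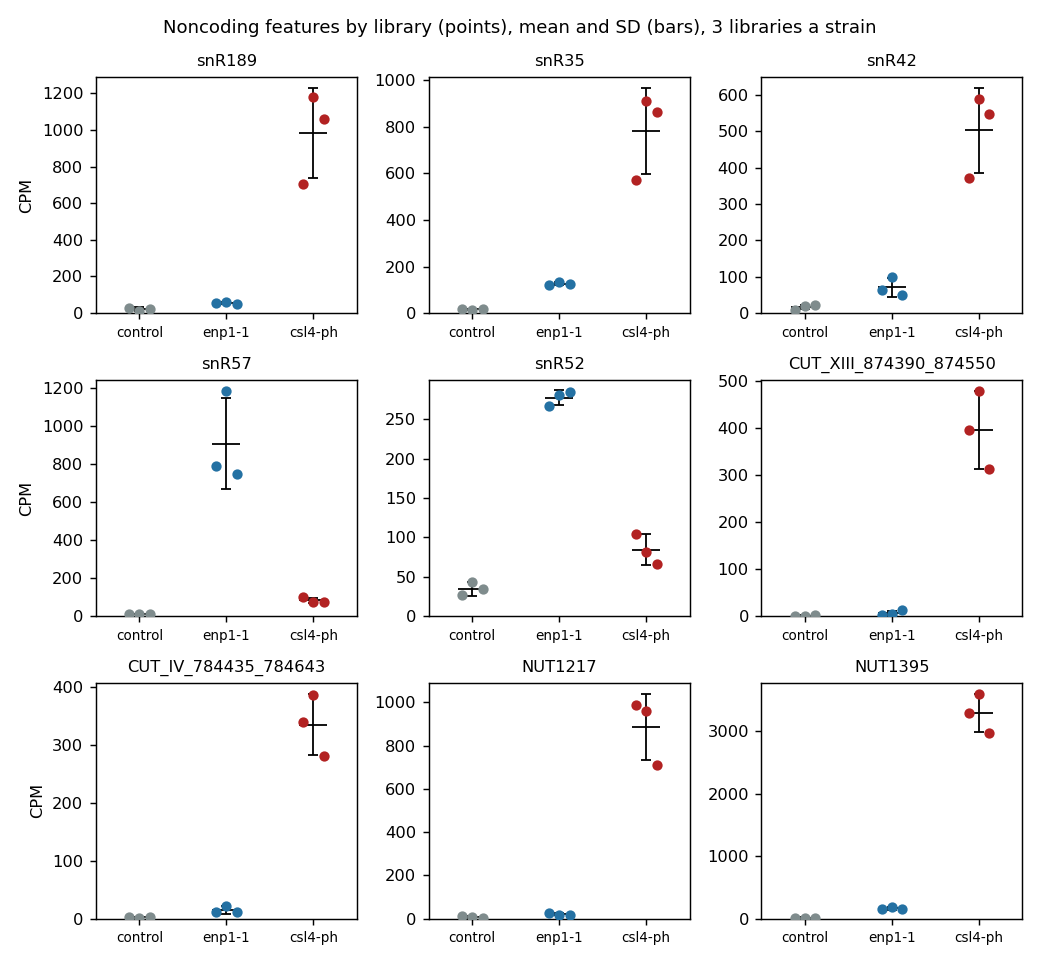
Level in CPM (vertical axis, from 0) of 9 noncoding features in each library of control, enp1-1 and csl4-ph with empty vector; points are libraries, bars the mean and SD of 3. The points of csl4-ph lie above both other strains for snR189, snR35, snR42, both CUTs and both NUTs, while snR57 and snR52 are highest in enp1-1.

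Calls among snoRNAs ran in both directions, and are given by class. Of 16 tested H/ACA snoRNAs, of 29, 8 were higher in csl4-ph and 2 lower, beside 11.1% and 5.47% of all features. Their median log2 fold change was 1.62 beside 0.01 over all features. snR189, printed above, was at 706.5, 1178 and 1063 CPM in csl4-ph, at 53.32, 57.67 and 49.62 CPM in enp1-1, and at 20.6 CPM ± 9.81 (SD, n = 3) in the control. It overlaps no other feature, and the lowest csl4-ph library was far above the highest enp1-1 library (log2 fold change 4.19, SE 0.42, adjusted p = 2.86e-06). snR35, also printed above, was at 572, 911.9 and 864.1 CPM in csl4-ph and 121.9, 134.2 and 124.1 CPM in enp1-1, with no overlap (log2 fold change 2.63, SE 0.27, adjusted p = 3.97e-06). snR42 was at 370.4, 589.6 and 546.4 CPM in csl4-ph and 62.21, 99.05 and 49.62 CPM in enp1-1, again with no overlap (log2 fold change 2.82, SE 0.30, adjusted p = 4.48e-06). snR35 and snR42 lie within NUT1434 and NUT1237, which were higher in csl4-ph too (log2 fold changes 2.78 and 1.66, adjusted p = 1.11e-08 and 2.35e-06); these NUTs were taken for their overlap after the values were seen.

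The other H/ACA snoRNAs called higher were snR161, snR9, snR81, snR31 and snR43, with log2 fold changes of 1.37 to 2.80. They were read from the calls after the values were seen. The H/ACA snoRNAs called lower, snR84 and snR86, were singled out in the same way. snR84 was at 3096 CPM ± 363 in csl4-ph, 5161 CPM ± 763 in enp1-1 and 5666 CPM ± 318 in the control (SD, n = 3; csl4-ph against enp1-1 adjusted p = 0.00623). snR86 was at 4589, 3765 and 3813 CPM in csl4-ph and 7253, 5778 and 10090 CPM in enp1-1 (adjusted p = 0.00798), and the call ended without replicate 3 of enp1-1. In strains with a Pab1GFP vector in place of the empty one snR86 was not called (log2 fold change -0.36, adjusted p = 0.196), and it was called higher in csl4-ph in oligo d(T)-selected RNA (adjusted p = 1.25e-06) and in ribo-depleted RNA (0.74, SE 0.04, adjusted p = 5.3e-07). snR86 lies within NUT1320, which was at 5161 CPM ± 131 in csl4-ph and 448 CPM ± 112 in enp1-1 (SD, n = 3). With snR86 and the features that overlap it summed, the log2 ratio of the mean CPM, each plus 1, was 0.19. Summed over the class, H/ACA counts were 12420 to 12920 CPM in csl4-ph and 12850 to 15720 CPM in enp1-1, so that the strains overlapped in the sum, to which snR84 and snR86 contributed most of the counts.

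Of 20 tested box C/D snoRNAs, of 47, 3 were higher in csl4-ph and 7 lower, with a median of 0.00. Over all features 11.1% were higher and 5.47% lower. snR57, printed above, was at 96.9, 75.46 and 72.85 CPM in csl4-ph, at 785.9, 1181 and 747.6 CPM in enp1-1, and at 11.7 CPM ± 0.564 (SD, n = 3) in the control. Here enp1-1 stood above the other strains in every library (log2 fold change -3.47, SE 0.31, adjusted p = 8.21e-07). snR52 was at 104.7, 81.85 and 66.57 CPM in csl4-ph and 266.6, 280.9 and 284.5 CPM in enp1-1, with no overlap (log2 fold change -1.72, SE 0.22, adjusted p = 4.12e-05). Both lie apart from other features. snR190, which is made from a shared precursor with the snoRNA U14, was lower as well (log2 fold change -2.77, SE 0.32, adjusted p = 1.04e-05), but it lies within NUT1162, also taken for its overlap after the values were seen, which was higher (1.70, adjusted p = 3.81e-06), and the summed locus had a log2 ratio of 1.54. The box C/D snoRNAs called higher were snR39B, snR13 and snR39, chosen after their values were seen, with log2 fold changes of 2.92, 5.07 and 2.29. Of these, snR39 lost its call without csl4-ph replicate 1 and without each of the enp1-1 replicates. Summed over the class, box C/D counts were 1624 to 2046 CPM in csl4-ph, 2879 to 4544 CPM in enp1-1 and 829 to 1004 CPM in the control, with no overlap between strains.

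Among mRNAs, 5 of 11 tested genes of G2/M and mitotic exit, of 25 in the list, were lower in csl4-ph, beside 5.47% of all features. The other 6 did not pass the test, and 0 were higher (median log2 fold change -1.03), with the same counts by DESeq2 and 1 and 6 at an unadjusted p under 0.05 by edgeR. CDC5, the polo kinase gene, was at 203.2, 202.1 and 207.2 CPM in csl4-ph, 457, 422.5 and 368.9 CPM in enp1-1 and 373.6 CPM ± 24.9 (SD, n = 3) in the control. The csl4-ph libraries lay close together and below all others (log2 fold change -1.03, SE 0.15, adjusted p = 0.000199). SWI5, a transcription factor gene of late mitosis, was at 54.7, 66.51 and 81.64 CPM in csl4-ph and 154.9, 158 and 160.4 CPM in enp1-1 (log2 fold change -1.21, SE 0.19, adjusted p = 0.000212). DSE1, a daughter-cell gene of the separation programme, was at 31.26, 43.48 and 42.7 CPM in csl4-ph and 130.8, 166.8 and 110.8 CPM in enp1-1 (log2 fold change -1.79, SE 0.22, adjusted p = 2.54e-05). Neither gene's groups overlapped. Of 20 tested G1/S genes 2 were higher and 2 lower, beside 11.1% and 5.47% of all features. GIC2, a Cdc42 effector gene, was among the lower ones (log2 fold change -0.67, adjusted p = 0.00578).

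Histone features in 3′ tags went in both directions: of 5 tested, 1 was higher in csl4-ph and 2 were lower, beside 11.1% and 5.47% of all features. HTA2, which encodes histone H2A, was at 1263, 1354 and 1074 CPM in csl4-ph, 417.7, 428.8 and 392.0 CPM in enp1-1 and 200.2 CPM ± 62.1 (SD, n = 3) in the control, with no overlap (log2 fold change 1.57, SE 0.17, adjusted p = 6.51e-06). Its near copy HTA1, added after the values were seen, was at 17.91 to 27.63 CPM in csl4-ph and 6.348 to 11.58 CPM in enp1-1 (log2 fold change 1.36, SE 0.57, adjusted p = 0.128). How tags were divided between the copies is uncertain. HTB1, a histone H2B gene, was at 19.7 CPM ± 9.72 in csl4-ph and 149.6 CPM ± 145 in enp1-1 (SD, n = 3; adjusted p = 0.0407). The call of HTB1 ended without any 1 of the csl4-ph libraries, without enp1-1 replicate 2 or 3, and with a replicate block. In the other kinds of RNA the histone genes ran in 1 direction. Of 10 tested 0 were higher and 9 lower in oligo d(T)-selected RNA, and 0 were higher and 10 lower in ribo-depleted RNA. There 26.7% and 32.1% of all features were lower.

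Few genes for the making of ribosomes passed the test in 3′ tags with the empty vector, while more of those for subunit biogenesis were called lower in the other libraries. Of 98 tested cytosolic ribosomal protein genes 2 were higher and 2 lower (median -0.25), beside 11.1% and 5.47% of all features. Their summed counts were 38810 to 54870 CPM in csl4-ph and 39860 to 67140 CPM in enp1-1, which overlapped. RPL8A, a large subunit protein gene, was at 1107, 1074 and 906.8 CPM in csl4-ph, 180.3, 200.6 and 130.7 CPM in enp1-1 and 346.1 CPM ± 38 (SD, n = 3) in the control, with no overlap (log2 fold change 2.59, SE 0.17, adjusted p = 4.23e-08). Its near-identical copy RPL8B, added after the values were seen, was at 987.8 to 1417 CPM in csl4-ph and 1233 to 1535 CPM in enp1-1 (adjusted p = 0.781), and the authors' counting could split tags between the copies. Of 28 tested genes of small subunit biogenesis, the pathway of Enp1, 0 were higher and 3 lower (0 and 3 by DESeq2, 0 and 8 at an unadjusted p under 0.05 by edgeR). Of 43 of large subunit biogenesis 0 were higher and 2 lower (2 and 1 by DESeq2, 2 and 5 unadjusted). UTP21, a small subunit processome gene, was at 180.6 CPM ± 3.97 in csl4-ph and 305.7 CPM ± 108 in enp1-1 (SD, n = 3; adjusted p = 0.0164). With Pab1GFP 13 of 28 small subunit biogenesis genes were lower, and of 43 large subunit genes 2 were higher and 17 lower. In oligo d(T)-selected RNA 3 of 53 small subunit genes were higher and 37 lower, and 8 of 61 large subunit genes were higher and 35 lower. In ribo-depleted RNA the higher and lower counts were 1 and 43 of 53 and 3 and 49 of 61, where 32.1% of all features were lower, beside 26.7% in oligo d(T)-selected RNA and 19.3% with Pab1GFP. Of the ribosomal protein genes 65 of 137 were higher and 18 lower in oligo d(T)-selected RNA, and 24 of 138 higher and 73 lower in ribo-depleted RNA. The call of UTP21 ended without csl4-ph replicate 2 or 3, without enp1-1 replicate 3, and with the compared groups fitted alone. Of 15 tested subunit genes of RNA polymerases I and III, 1 was higher and 1 lower. RPA135, a subunit gene of RNA polymerase I, was lower (log2 fold change -1.23, SE 0.25, adjusted p = 0.00242). RPC19 of the same list was higher (log2 fold change 1.675, SE 0.56, adjusted p = 0.0497).

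Proteasome and chaperone genes that passed the test were higher in csl4-ph: 5 of 22 tested proteasome genes and 3 of 18 tested heat shock chaperone genes, with medians of 0.21 and 0.32, beside 11.1% of all features called higher. The chaperone count is near that background, while of the 3241 tested ORFs alone 4.5% were called higher. By DESeq2 7 and 4 were higher and 0 lower, and at an unadjusted p under 0.05 by edgeR 6 and 4 were higher and 1 and 0 lower. RPT3, a proteasome ATPase gene, was at 40.64, 56.27 and 42.7 CPM in csl4-ph and 16.5, 5.015 and 1.654 CPM in enp1-1, with no overlap (log2 fold change 2.52, SE 0.53, adjusted p = 0.004). PRE9, a core particle gene, was higher too (log2 fold change 6.05, SE 1.04, adjusted p = 0.00153), and it overlaps a CUT and a NUT. HSP82, the heat-inducible Hsp90 gene, was at 8235, 7698 and 7350 CPM in csl4-ph, 5945, 4289 and 5553 CPM in enp1-1 and 7724 CPM ± 587 (SD, n = 3) in the control. Here csl4-ph was at the level of the control and above enp1-1 (log2 fold change 0.56, SE 0.12, adjusted p = 0.0039). In the other kinds of RNA more chaperone genes were lower than higher: 4 of 27 were higher and 14 lower in oligo d(T)-selected RNA, and 6 and 14 in ribo-depleted RNA. Of 34 proteasome genes 11 were higher and 8 lower in the former, and 3 higher and 24 lower in the latter, where RPT3 itself was called lower (-0.38, SE 0.03). Over all features 26.7% were called each way in oligo d(T)-selected RNA, and 26% higher and 32.1% lower in ribo-depleted RNA. The proteasome counts in oligo d(T)-selected RNA are near those shares.

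Of other pathways few members passed the test, and 1 gene stands for each here. Higher and lower counts were 0 and 2 of 12 tested cell wall genes and 1 and 1 of 14 ergosterol genes. They were 0 and 1 of 25 amino acid synthesis genes and 1 and 0 of 14 endoplasmic reticulum genes. For respiration they were 1 and 0 of 23, and for poly(A) tail and export factors 1 and 2 of 17. Over all features 11.1% were higher and 5.47% lower, and over ORFs alone 4.5% and 5.52%. Counts this small cannot be read as results about the pathways. The ergosterol gene called higher was ERG20 (log2 fold change 1.61, SE 0.42, adjusted p = 0.0132). In oligo d(T)-selected RNA ERG20 was not called (-0.08, adjusted p = 0.179), and in ribo-depleted RNA it was called lower (-0.38, SE 0.03, adjusted p = 4.23e-06). CIS3, a cell wall mannoprotein gene, was at 517.3, 553.8 and 599.1 CPM in csl4-ph, 1430, 1205 and 696.4 CPM in enp1-1 and 2329 CPM ± 203 (SD, n = 3) in the control (log2 fold change -0.997, SE 0.20, adjusted p = 0.0026). Both mutants lay below the control, csl4-ph the lower of them. ERG11, an ergosterol synthesis gene, was at 628.5 CPM ± 67.4 in csl4-ph and 1004 CPM ± 214 in enp1-1, and LYS9, a lysine synthesis gene, at 92.4 CPM ± 22.3 and 170.4 CPM ± 22.9 (SD, n = 3; adjusted p = 0.00854 and 0.00572). ERO1, which drives disulfide formation in the endoplasmic reticulum, was at 886.2, 1021 and 776.2 CPM in csl4-ph, 505.3, 565.5 and 319.2 CPM in enp1-1 and 1242 to 1689 CPM in the control (csl4-ph against enp1-1 adjusted p = 0.00378). IDH1, a citric acid cycle gene, was higher in csl4-ph (log2 fold change 0.99, SE 0.24, adjusted p = 0.00866), a call that ended without enp1-1 replicate 1. GBP2, which binds mRNA for export, was lower (log2 fold change -0.57, SE 0.13, adjusted p = 0.00597).

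**Figure D3:**
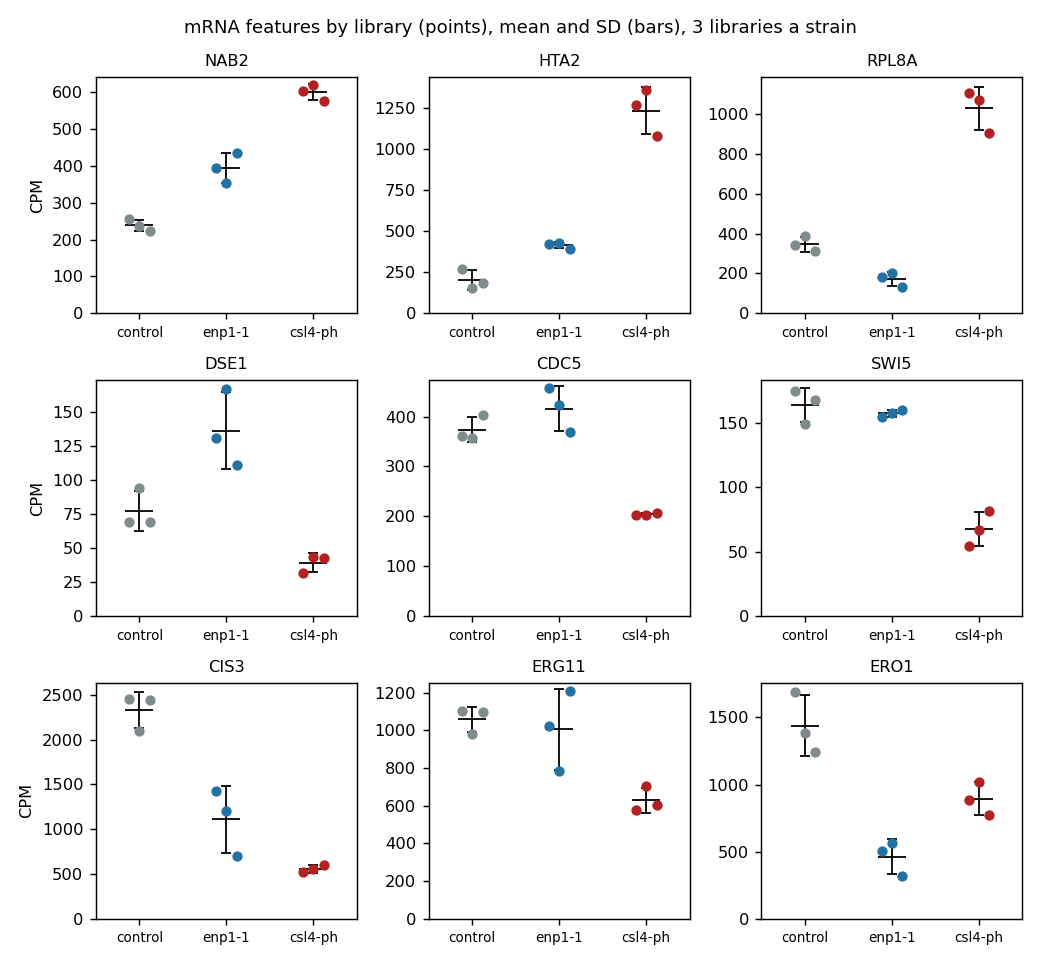
Level in CPM (vertical axis, from 0) of 9 mRNA features in each library of control, enp1-1 and csl4-ph with empty vector; points are libraries, bars the mean and SD of 3. For NAB2, HTA2 and RPL8A csl4-ph is highest, and for DSE1, CDC5, SWI5, CIS3 and ERG11 it is lowest; ERO1 lies between enp1-1 and the control.

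Among ORFs with large fold changes, several overlap noncoding features that moved the other way or alike. RTP1, a nuclear import gene that overlaps nothing, was at 54.7, 67.78 and 70.34 CPM in csl4-ph and 3.809, 2.508 and 6.616 CPM in enp1-1 (log2 fold change 3.89, SE 0.65, adjusted p = 0.000481). TIM54, a mitochondrial import gene that overlaps nothing, was at 6.252, 12.79 and 11.3 CPM in csl4-ph and 66.02, 47.64 and 51.28 CPM in enp1-1 (log2 fold change -2.41, SE 0.41, adjusted p = 0.000616). In neither gene did the groups overlap. With Pab1GFP RTP1 was called higher (3.52) and TIM54 was not called (-0.715, adjusted p = 0.172). RTP1 was called higher in oligo d(T)-selected RNA (0.21) and not called in ribo-depleted RNA (-0.004, adjusted p = 0.977). TIM54 was not called in oligo d(T)-selected RNA (-0.008, adjusted p = 0.883) and called lower in ribo-depleted RNA (-0.225). RPR2, a subunit gene of nuclear RNase P, was higher (log2 fold change 3.45, adjusted p = 9.3e-06), as was the sum of its locus with a CUT and a NUT (log2 ratio 2.45), but RPR2 was called lower in ribo-depleted RNA (-0.29, adjusted p = 0.00892). GYP6 had no counts in csl4-ph and 99.96 CPM ± 2.59 (SD, n = 3) in enp1-1, at least 24.4-fold lower. NUT0403, taken for its overlap with GYP6 after the values were seen, was higher (log2 fold change 2.29, adjusted p = 1.47e-06). The summed locus had a log2 ratio of 0.95. RRM3, a DNA helicase gene, likewise had no counts in csl4-ph and 127.7 CPM ± 23.4 in enp1-1, at least 31.2-fold lower, and its summed locus was lower too (log2 ratio -2.81). RRM3 was called higher in csl4-ph, however, in oligo d(T)-selected RNA (adjusted p = 0.000115) and in ribo-depleted RNA (log2 fold change 0.35, SE 0.13, adjusted p = 0.0481). The feature snR7-S, the short form of a spliceosomal RNA, had no counts in enp1-1 and 145.6 CPM ± 7.73 in csl4-ph, at least 34.8-fold higher, but with its long form summed the log2 ratio was 0.18, and in ribo-depleted RNA snR7-S was called lower (-0.40, adjusted p = 0.029).

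The strains also differed in markers of mating type and of strain background, which go against a shared label. BY4741 is of mating type a and carries LYS2, and LYS2 (lysine synthesis) was at 0 in all csl4-ph and control libraries and at 325, 316 and 393.7 CPM in enp1-1, at least 84.2-fold higher. STE6, the a-factor exporter gene, was at 54.7, 43.48 and 37.68 CPM in csl4-ph, 629.7, 631.9 and 769.1 CPM in enp1-1 and 33.8 CPM ± 8.22 (SD, n = 3) in the control (log2 fold change -3.90, SE 0.22, adjusted p = 4.11e-09). STE3, the a-factor receptor gene of alpha cells, was at 53.14, 49.88 and 37.68 CPM in csl4-ph and 7.617, 18.81 and 14.89 CPM in enp1-1 (log2 fold change 1.76, SE 0.32, adjusted p = 0.000932). Thus enp1-1 held the high level of the a-cell gene, while csl4-ph and the control held that of the alpha-cell gene. Over all 6 a-specific genes the summed level was 66.76 to 78.15 CPM in csl4-ph, 653.4 to 803.8 CPM in enp1-1 and 26.6 to 44.61 CPM in the control, with 0 to 5 of them at 0 in a library. MFA1, MFA2 and STE2, which encode a-factor and the alpha-factor receptor, were at 0 in every control library and had no more than 6 counts over the 3 enp1-1 libraries, so the sum rests on STE6. Over all 4 alpha-specific genes it was 148.3 to 162.5 CPM in csl4-ph, 58.26 to 86.93 CPM in enp1-1 and 231.2 to 297.4 CPM in the control.

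AGA2, an a-agglutinin gene, went with STE6 (log2 fold change -4.64, SE 0.99, adjusted p = 0.00373). BAR1, another a-specific gene, was the exception at 24.4 CPM ± 5.99 in csl4-ph and 1.25 CPM ± 2.17 in enp1-1 (SD, n = 3; log2 fold change 4.02, adjusted p = 0.0249). The call of BAR1 ended without any 1 of the csl4-ph libraries and without enp1-1 replicate 1 or 3, it overlaps other features, and in oligo d(T)-selected and ribo-depleted RNA its log2 fold changes were -3.52 and -3.53. HO, the gene of the mating-type switching endonuclease, was at 45.3 CPM ± 5.54 in csl4-ph, 329.4 CPM ± 26 in enp1-1 and 155.9 CPM ± 54.1 in the control (SD, n = 3; csl4-ph against enp1-1 adjusted p = 4.21e-07). In this comparison the alleles cannot be told apart from the mating type and the other differences of background between the strains, and which of the other calls go with them was not tested.

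The same strains carrying a vector with Pab1GFP, a poly(A)-binding protein fused to a fluorescent protein, gave 6 further libraries. There 1339 features (21.4%) were higher in csl4-ph and 1206 (19.3%) lower. Of the 691 features higher with the empty vector 604 were called higher again and 1 was called lower, and of the 342 lower 198 were called lower again and 12 higher. Of 190 CUTs 184 were called higher again. Of all calls with Pab1GFP 52.6% were higher with TMM scaling and 73.7% with median-ratio scaling, which moved the median by 0.25. The log2 fold change was 3.05 (SE 0.41) for snR189, 2.51 (SE 0.28) for snR35, 2.74 (SE 0.31) for snR42 and -1.97 (SE 0.30) for snR57, each called. CDC5, SWI5 and DSE1 were lower there too (-0.66, -1.61 and -2.39), with the call of CDC5 ending under median-ratio scaling and with the compared groups fitted alone. Of 98 tested ribosomal protein genes 5 were higher and 52 lower there (median -1.08). The difference between the strains depended on the vector for 212 of the 6249 features (3.39%).

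Oligo d(T)-selected and ribo-depleted RNA of the same alleles came from frozen cell powder, with 3 csl4-ph and 2 enp1-1 libraries each. In oligo d(T)-selected RNA 2787 of 10447 tested features (26.7%) were higher in csl4-ph and 2791 (26.7%) lower, and in ribo-depleted RNA 2738 of 10550 (26%) were higher and 3390 (32.1%) lower. For replicate 1 of csl4-ph in the ribo-depleted table the protocol label names oligo d(T) enrichment, in conflict with its title. Of the 691 features higher in 3′ tags, 642 were tested in oligo d(T)-selected RNA, where 293 were called higher and 62 lower, and 643 in ribo-depleted RNA, where 377 were called higher and 64 lower. Of the 342 lower ones, 329 were tested in each, with 187 lower and 30 higher in oligo d(T)-selected RNA and 172 lower and 51 higher in ribo-depleted RNA. Of all tested features 26% to 32.1% were called in each direction there. The classes differed among the lower ones in ribo-depleted RNA. Of 179 ORFs lower in 3′ tags, 135 were called lower there and 7 higher. Of 31 such CUTs 5 were called lower and 10 higher, and of 56 such NUTs 14 were called lower and 18 higher. Among all CUTs tested in ribo-depleted RNA 41 of 736 were lower and 276 higher, and among all NUTs 242 of 1459 and 613. For features lower in 3′ tags and named ST the counts were 7 lower and 5 higher of 22, and for F or R 10 and 9 of 33. In oligo d(T)-selected RNA 13 of 32 CUTs lower in 3′ tags were called lower and 3 higher, and 21 of 56 such NUTs lower and 11 higher.

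Of 24 tested H/ACA snoRNAs 22 were higher in csl4-ph and 0 lower in oligo d(T)-selected RNA (median 2.83), with the same counts by DESeq2 and at an unadjusted p under 0.05 by edgeR. In ribo-depleted RNA 15 of 29 were higher and 4 lower (median 0.27). snR189 had log2 fold changes of 3.57 (SE 0.13) and 1.63 (SE 0.08) in the former and the latter, both called. snR35 had 2.51 (SE 0.28), called, and 0.10 (SE 0.09), not called. snR42 had 1.75 (SE 0.62), a call that ended on leaving out any 1 of its libraries, with DESeq2 and with a replicate block, and -0.07 (SE 0.09). Of 21 tested box C/D snoRNAs 6 were higher and 8 lower in oligo d(T)-selected RNA (median -0.51). In ribo-depleted RNA 3 of 28 were higher and 3 lower (median 0.11). For snR57 the values were -2.25 (SE 0.45), called, and -0.16 (SE 0.22), not called. snR52 was called in neither kind, at -1.17 (SE 0.75, adjusted p = 0.225) and -0.61 (SE 0.55, adjusted p = 0.378). Ribo-depleted RNA is not selected for poly(A), and the difference between the kinds of libraries was not tested. NUT1217 and NUT1395 were higher in both (2.47 and 2.39 in oligo d(T)-selected, 2.63 and 2.45 in ribo-depleted RNA).

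Of the mRNAs, RPL8A was higher (0.69 and 2.91) and SWI5 (-1.003 and -1.48), DSE1 (-2.21 and -2.63), CIS3 (-1.05 and -1.23) and ERG11 (-0.49 and -0.83) were lower in oligo d(T)-selected and ribo-depleted RNA, each called. NAB2 had 0.05 (SE 0.06, adjusted p = 0.489) and 0.60 (SE 0.03, adjusted p = 1.47e-07). HTA2 went the other way from the 3′ tags, at -1.82 (SE 0.04) and -1.40 (SE 0.05), both called, as did HTA1 at -0.38 and -0.71. HSP82 also went the other way, being lower in oligo d(T)-selected RNA (-0.95, SE 0.03) and in ribo-depleted RNA (-0.26, SE 0.02), both called. Of 24 tested G2/M genes 1 was higher and 19 lower in oligo d(T)-selected RNA and 22 were lower in ribo-depleted RNA, in the direction of the 3′ tags. This was not particular to G2/M genes. Of 24 tested G1/S genes 1 was higher and 19 lower in oligo d(T)-selected RNA, and 0 were higher and 21 lower in ribo-depleted RNA. Over all features 26.7% and 32.1% were lower in the 2 kinds of RNA.

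**Figure D4:**
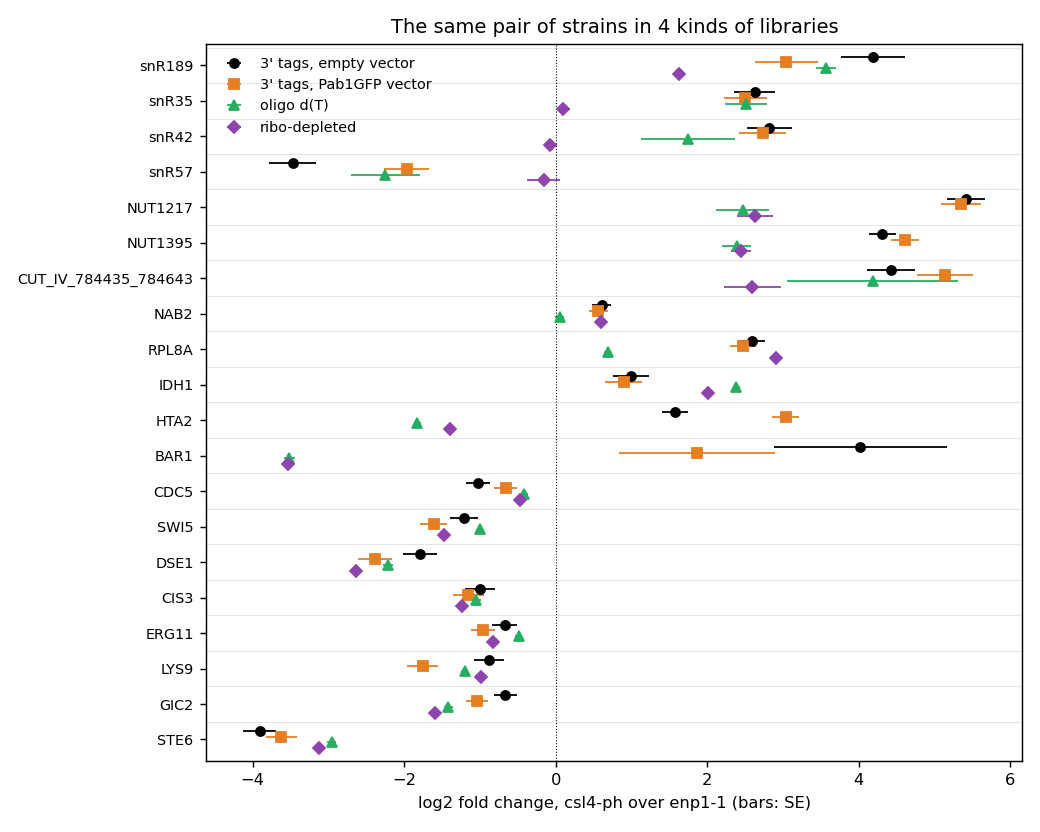
Log2 fold change of csl4-ph over enp1-1 (horizontal axis; bars are SE) for 20 features in 4 kinds of libraries: 3′ tags with empty vector, 3′ tags with Pab1GFP vector, oligo d(T)-selected RNA and ribo-depleted RNA. HTA2 and BAR1 lie above 0 in both sets of 3′ tags and below 0 in the others. The features were chosen with their values known. Some features that turned in at least 1 other kind of library are not drawn. Among them are HSP82, RPT3, RPR2, RRM3, KAR4, ST1778, snR86, snR7-S, CUE5, ERG20 and HTA1. Also left out are some that were not called in at least 1 other kind, such as CUT_XIII_874390_874550, CUT_III_28613_29109, RTP1, TIM54 and snR52.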

How the data were processed

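The values were 18 libraries of single 3′ tags, 10 of oligo d(T)-selected RNA and 13 of ribo-depleted RNA, in 3 deposited tables of estimated counts. Per the submitters' processing notes, the authors trimmed reads with Trimmomatic (0.38 for the tags, 0.39 otherwise) and made the deposited estimated counts with Salmon 0.12.0 on features of sacCer3 (R64). Bedtools, DESeq and DESeq2 1.26.0 are listed there as well, and no output of theirs was used. How overlapping features, paralogs or strand were treated is not given in the sources used here. Per the labels' protocols, RNA for the tags came from a column kit and was read as single reads of 90 bases, after which first bases, adapters and poly(A) stretches were removed.

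Estimated counts were rounded to whole numbers and 18 features of the ribosomal DNA (chromosome XII) were removed first. The quasi-likelihood F-test of edgeR (4.0.16, R 4.3.3; 2-sided) was fitted once per table, with the 18 tag libraries as 6 groups. Scaling was by trimmed mean of M-values (TMM), features with low counts were dropped by filterByExpr, CPM used the scaled library sizes, and p-values were adjusted by Benjamini-Hochberg over every tested feature. The test was also run on simulated data of the empty vector comparison. It recovered 34.1% of 91 features changed by a log2 fold of 1 and 78.4% of 97 changed by 2, with 2 false calls. A feature not called may thus still differ between the strains. Shares of counts were compared by exact permutation tests. Columns were matched by their names, 0 were left out, and 0 libraries were identical. The alternatives were median-ratio scaling, scaling on ORFs, no filter, DESeq2 1.42.0, the compared groups alone, ribosomal DNA kept, a replicate block and leaving out each library. Summing overlapping features and counting those without overlap were added after seeing the data.

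The comparison, lists and tests were chosen with earlier results of these data known. The text draws on the followed genes, the 12 ORFs and 6 other features with the largest changes each way (called, mean of at least 20 CPM, groups apart), up to 3 called members of each list, and the mating-type and marker genes. Features outside this rule are named as chosen after their values were seen.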

Additional observations from a re-analysis of the deposited data

Results flagged for a closer look

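For 4 named features the difference between csl4-ph and enp1-1 in 3′ tags itself differed between the vectors, by edgeR's test of the interaction (Pab1GFP vector minus empty vector). For HTA2, a histone H2A gene, the log2 fold change was 1.57 with the empty vector and 3.04 with Pab1GFP, and the difference of 1.462 (SE 0.24, adjusted p = 0.00476) was in the same direction in both. Its level was 1230 CPM ± 143 in csl4-ph and 412.8 CPM ± 18.9 in enp1-1 with the empty vector, and 1942 CPM ± 321 and 236.2 CPM ± 18.3 with Pab1GFP (SD, n = 3). For ST4490 the difference was 5.807 (SE 0.86, adjusted p = 0.00339), with csl4-ph at 205.2 and 131.4 CPM and enp1-1 at 15.9 CPM with the empty vector and at 0 in all 3 libraries with Pab1GFP, so that the fitted value is no bound. For CUE5, which binds ubiquitin, the difference was 4.103 (SE 0.67, adjusted p = 0.00861): csl4-ph was at 14.7 and 45.8 CPM, and enp1-1 at 106.9 and 18.7 CPM, with the empty and the Pab1GFP vector. With Pab1GFP alone the call of CUE5 ended without replicate 2 or 3 of csl4-ph, without replicate 1 or 3 of enp1-1, with no filter and with the compared groups alone, and in oligo d(T)-selected RNA CUE5 was called higher in csl4-ph (0.60, SE 0.20, adjusted p = 0.0348). For the ORF feature YEL076C the difference was 5.356 (SE 1.14, adjusted p = 0.028), and csl4-ph was at 3.38 and 9.98 CPM against 49.9 and 2.88 CPM in enp1-1, values near the floor in part. Of the 12 fits that leave out 1 library, 8 ended the call of YEL076C: those without csl4-ph replicate 2 or 3 of either vector, without any enp1-1 replicate with the empty vector and without enp1-1 replicate 3 with Pab1GFP. ST4490, CUE5 and YEL076C overlap 2, 3 and 2 other features, and HTA2 overlaps none.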

How the results depend on the processing

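The number of features called lower in csl4-ph with the empty vector was 342, and it was 224 with median-ratio scaling and 199 to 276 on leaving out 1 library, lowest without csl4-ph replicate 2. With Pab1GFP 1206 were called lower, and 575 with median-ratio scaling, 664 with scaling on ORFs, 702 with DESeq2, 665 with ribosomal DNA kept and 535 with the compared groups alone. In the vector interaction 212 were called, of which the number higher was 77 without the filter, 434 with DESeq2, 204 with the compared groups alone and 66 to 172 on leaving out 1 library. There 84 were called lower, but 40 with median-ratio scaling, 45 with scaling on ORFs, 45 without the filter, 165 with DESeq2, 42 with ribosomal DNA kept, 19 with the compared groups alone and 29 to 154 on leaving out 1 library. In ribo-depleted RNA 44.7% of calls were higher, and 61% with scaling on ORFs, which moved the median by 0.16. The cause of these shifts was not tested.

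Same-numbered libraries of the strains correlated by 0.137, 0.02 and 0.081 in their deviations from the group means, so the numbers were not taken as pairs. A replicate block gave 651 features higher and 318 lower.

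Of 935 values of 72 named features with the empty vector, 911 kept their direction and call, 21 lost the call, 1 gained it and 2 turned sign. PAB1, at -0.40, ranged from -0.631 to 0.005 on leaving out 1 library, above 0 without enp1-1 replicate 2. RPL8B ranged from -0.227 to 0.001, above 0 without csl4-ph replicate 1. In ribo-depleted RNA snR42 was at 0.09 with scaling on ORFs and snR57 at 0.001, and snR57 ranged from -0.369 to 0.085 on leaving out 1 library. None of these was a call. In oligo d(T)-selected RNA CUT_XIII_874390_874550 (1.45) lost its call without either enp1-1 library and with the block, and CUT_IV_784435_784643 (4.18) without either enp1-1 library. With 597581 to 809617 counts per library, features near 3 counts cannot be told from 0, and overlapping features cannot be separated.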
